A study of Mus musculus with 10 samples.

Results

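The collagen genes of mouse kidney were read as a family. They were chosen by symbol alone, as every gene of the joined count matrix whose name is Col, a number, the letter a and a number. That gave 44 of 24062 genes, of which 11 encode fibrillar collagens, 8 encode collagens of basement membranes and 25 encode other collagens. Of the 44 genes, 34 had enough counts to be tested, and 10 were low, under 1 CPM (counts scaled to a library total of 1 M) in every library.

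Polyadenylated RNA of whole kidney was sequenced from 10 mice. The main groups were 4 Ehhadh knockout (KO) and 4 wild-type (WT) adult male animals, both of the strain C57BL/6N. Single WT animals of 2 other strains, labelled DBA_2J and 129S2_SvPasCrl, were sequenced beside them. The labels do not give their sex or age, so differences between strains cannot be told apart from differences of sex or age. Ehhadh encodes the peroxisomal L-bifunctional enzyme of fatty acid breakdown. The labels give no allele, no litter and no age in weeks, and each strain library is 1 animal. In whole kidney, fewer cells of a type and less RNA per cell cannot be told apart.

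Collagens are built from 3 α chains wound into a triple helix, with glycine at regular steps along each chain. Fibrillar collagens pack side by side into the fibres of the interstitium. Type IV collagen instead forms a sheet-like network under epithelia and endothelia. Its α1 and α2 chains are found in most basement membranes, whereas the α3, α4 and α5 chains form the mature network of the glomerular basement membrane and of some tubules. Loss of that network causes Alport syndrome.

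Library totals ran from 19.79 to 57.25 M (mega) counts, and collagen genes took 0.1667% to 0.1946% of them. KO libraries were the deeper ones, at 47.2 ± 4.82 M against 29.8 ± 6.97 M in WT (SD, 4 animals a group; two-sided exact permutation p = 0.0286). The targeted gene followed the labels, with Ehhadh at 175 to 327 CPM in KO, beside 2088 to 3418 CPM in WT. It stood at 796 CPM in DBA_2J and 788 CPM in 129S2_SvPasCrl. Proximal tubule markers summed to 10263 CPM or more in every library. Some mice have titles that start with E and some do not, 2 KO and 2 WT animals of each form, and what the form marks is not in the labels. The number that opens a title differs between KO and WT in every case, so whatever it marks and the genotype cannot be told apart.

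The first comparison asked which collagen genes differ between kidneys with and without Ehhadh. Basement membrane collagens went both ways: Col4a1 and Col18a1 rose in KO, by 1.22-fold each, and the paired genes Col4a3 and Col4a4 fell, by 1.26-fold and 1.21-fold. Col27a1, the collagen gene with the highest level per length in WT, fell 1.40-fold. The other falls, in Col26a1, Col19a1 and Col6a6, were 1.73-fold to 3.06-fold, in genes of low level. The main interstitial fibril genes Col1a1, Col1a2 and Col3a1 did not pass the test, with log2 fold changes of 0.30, −0.06 and 0.00.

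In counts, 2 of the 34 tested collagen genes were called higher in KO and 6 lower (edgeR quasi-likelihood test, adjusted p under 0.05 over all 15547 tested genes). The share over the whole table was 6.32% higher and 4.68% lower. Without adjustment, 13 of the 34 collagen genes had a p under 0.05, beside 26% of all tested genes. Values of KO and WT were fully apart in 8 of the 34, beside 17.7% of all tested genes. The median log2 fold change of the 34 genes was −0.18, beside −0.01 over all tested genes, and 22 lay below 0. By class, 0 of 9 tested fibrillar genes were higher and 1 lower (median −0.06). Of 8 basement membrane genes 2 were higher and 2 lower (−0.03), and of 17 tested others 0 were higher and 3 lower (−0.34). At an unadjusted p under 0.05 in edgeR, 1 fibrillar and 1 other gene were higher, beside 13.6% of all tested genes. At that level 1 fibrillar and 6 other genes were lower, beside 12.4% of all tested genes. DESeq2 called 1 fibrillar gene higher and 0 others, and voom 0 of each.

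**Figure D1:**
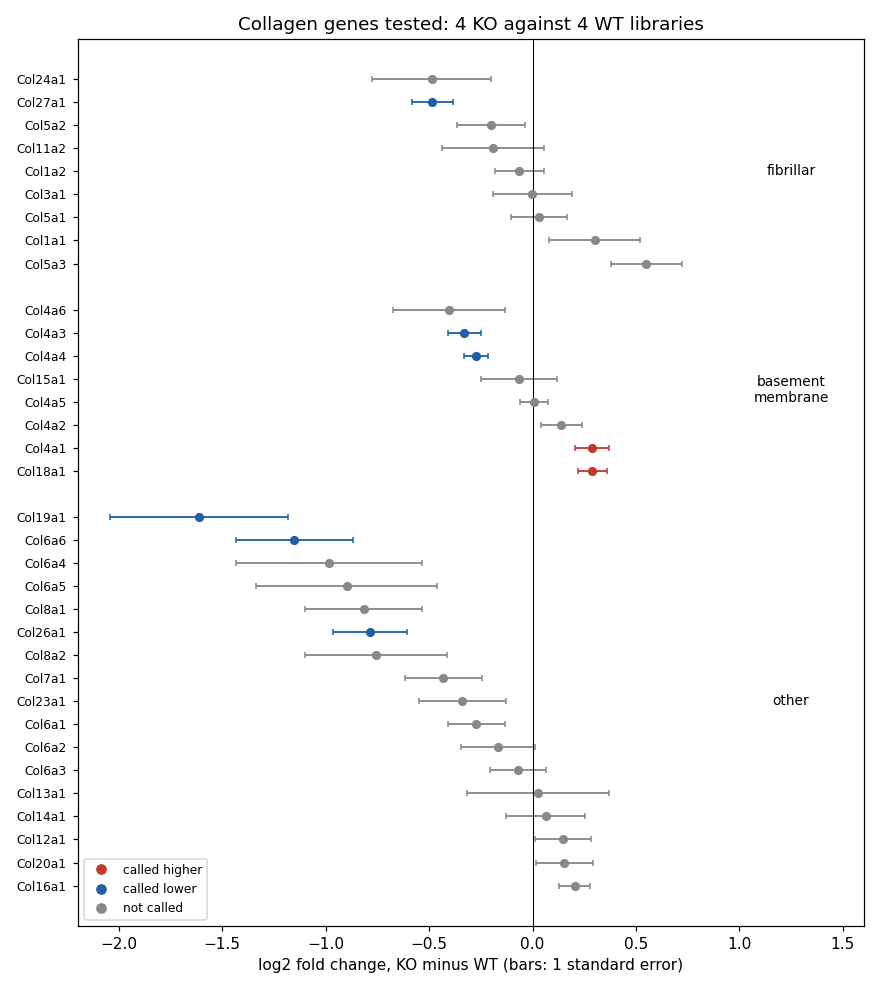
Log2 fold change of each of the 34 tested collagen genes, KO minus WT, with bars of 1 standard error from the edgeR fit to 4 KO and 4 WT libraries, grouped by class. Red points (Col4a1, Col18a1) were called higher and 6 blue points lower; in the group of other collagens the values run from −1.61 for Col19a1 to 0.20 for Col16a1.

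The same 8 genes were called with limma voom, with DESeq2 (which added Col5a3), with library totals alone, with title form as a term and after every library was thinned to the smallest total. Fewer of them were called with a single library left out. Only Col27a1 stayed called in all 8 such fits, and Col4a4 in 7. Over the whole table those fits called 610 to 916 genes higher and 381 to 722 lower, beside 982 and 728 in the main fit. In the 2 KO and 2 WT animals whose titles begin with E, fitted alone, 0 collagen genes were called in edgeR (edgeR alone was run), with 92 genes higher and 51 lower over the whole table. At an unadjusted p under 0.05 this fit had 5 of 34 collagen genes higher and 7 lower, beside 8.62% and 7.69% of all genes. The animals without the E, fitted alone, gave 8 calls, of which 6 were among the 8 above. Over the whole table that fit called 924 genes higher and 799 lower. Col4a1 (adjusted p = 0.0835) and Col6a6 (0.261) were not called there, while Col8a1 was called lower (0.00115) and Col17a1, under 1 CPM in every library, higher (0.0496). KO and WT values of all 8 did not overlap, so their direction could only be the same in both title forms.

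Among fibrillar collagens, Col27a1 (chromosome 4, 63215412 to 63334990, plus strand, mm10) encodes the chain of type XXVII collagen, a fibril-forming collagen with a shortened helix that is known from cartilage. Its level was 371, 416, 299.5 and 351 CPM in KO libraries and 545, 452, 485 and 536 CPM in WT libraries. The single libraries of DBA_2J and 129S2_SvPasCrl held 96.5 and 325 CPM. Every KO library was below every WT library, and the DBA_2J library was the lowest of the 10. Col27a1 fell in KO from 505 ± 43.8 to 359 ± 48.2 CPM (SD, n = 4 each; log2 fold change −0.48, SE 0.10; edgeR adjusted p = 0.0107). The difference was −0.65 in animals with a leading E in the title and −0.34 in those without. Cartilage and bone markers were near 0, with Matn1 at 0 in all 10 libraries and a summed level of 6 genes between 0.0737 and 2.15 CPM.

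In C57BL/6N most reads of the fibrillar class came from this gene: 84.3% ± 0.564 in WT and 78.6% ± 4.35 in KO (SD, n = 4 each). Its share was 73.0% in the 129S2_SvPasCrl library and 48.6% in the DBA_2J library. The 11 fibrillar genes together summed to 456 ± 37.1 CPM in KO and 598 ± 48.3 CPM in WT. Without Col27a1 the sums were 96.4 ± 12.8 and 93.7 ± 4.78 CPM, and the groups overlapped.

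Type I collagen, the bulk of interstitial scar, is made of 2 α1 chains and 1 α2 chain. For Col1a1, KO libraries read 10.9, 7.24, 13.9 and 16.9 CPM and WT libraries 8.48, 8.43, 11.4 and 11.4 CPM (log2 fold change 0.30, SE 0.22; edgeR adjusted p = 0.438). The KO values spread on both sides of the WT values. Col1a2 stood at 33.5, 21.7, 31.5 and 28.8 CPM in KO and 33.5, 29.4, 28.5 and 29.8 CPM in WT (−0.06, SE 0.12; adjusted p = 0.787). Col3a1, the only chain of type III collagen, which co-assembles with type I, had 12.7, 8.17, 15.9 and 17.4 CPM in KO against 15.4, 13.5, 12.9 and 12.8 CPM in WT. Its log2 fold change was 0.00 (SE 0.19), but 0.37 in animals with a leading E in the title and −0.50 in the others. KO replicate 2 was the lowest of the 8 libraries for all 3 genes.

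Type V collagen chains are minor parts of type I fibrils and regulate their diameter. Col5a3 read 13.5, 11.3, 19.96 and 15.8 CPM in KO and 9.60, 12.0, 11.5 and 8.28 CPM in WT. Its log2 fold change of 0.55 (SE 0.17) had the largest positive value among the 34 genes and did not pass (edgeR adjusted p = 0.065); it passed in DESeq2 (0.019) and without KO replicate 2 (0.0345). One KO library, replicate 2, lay inside the WT range. Col5a2 had 14.8, 20.05, 13.4 and 16.1 CPM in KO, beside 20.5, 13.5, 17.3 and 23.1 CPM in WT libraries, which overlapped (−0.20, SE 0.16; adjusted p = 0.489).

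The remaining tested fibrillar genes, Col5a1, Col11a2 and Col24a1, had WT means of 7.64, 2.08 and 1.01 CPM and did not pass. Their log2 fold changes were 0.03, −0.19 and −0.49. Col2a1 and Col11a1, fibrillar chains of cartilage, were low, with 34 and 102 counts over all 10 libraries.

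Basement membrane collagens summed to 1125 ± 19.7 CPM in KO, beside 1131 ± 48.5 CPM in WT (SD, n = 4), so the rises and falls below took place within a total that differed by less than the spread between libraries. Type IV genes lie head to head in pairs that share the space between their starts and are read outward on opposite strands. In the deposited annotation, Col4a1 (chromosome 8, 11198423 to 11312826, minus strand, mm10) ends 2 bases before Col4a2 (11312829 to 11449287, plus strand). Col4a4 (chromosome 1, 82450723 to 82586849, minus strand) and Col4a3 (82586921 to 82722059, plus strand) leave 71 bases between them, and Col4a6 and Col4a5 on chromosome X leave 1342.

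The promoter windows of the pairs whose members were called are shown because the starts of 2 genes lie in or beside each of them. They come from RefSeq on GRCm38.p6, from 250 bases before to 50 bases after each RefSeq start, 5′ to 3′ on the strand of the gene. The RefSeq start of Col4a2 differs from the start in the deposited annotation. Capitals in the first pair mark the 78 bases that both windows hold, on opposite strands (chr8:11312777-11312854). In Col4a4 they mark the 71 bases between the starts of Col4a4 and Col4a3 (chr1:82586850-82586920).
Col4a1 (chr8:11312777-11313076, minus strand): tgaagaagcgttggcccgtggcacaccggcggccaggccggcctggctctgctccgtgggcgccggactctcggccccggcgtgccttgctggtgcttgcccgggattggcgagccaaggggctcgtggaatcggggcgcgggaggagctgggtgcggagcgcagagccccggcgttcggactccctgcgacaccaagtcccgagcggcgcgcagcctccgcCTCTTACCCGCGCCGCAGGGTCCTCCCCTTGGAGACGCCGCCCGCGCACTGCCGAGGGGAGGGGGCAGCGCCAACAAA
Col4a2 (chr8:11312555-11312854, plus strand): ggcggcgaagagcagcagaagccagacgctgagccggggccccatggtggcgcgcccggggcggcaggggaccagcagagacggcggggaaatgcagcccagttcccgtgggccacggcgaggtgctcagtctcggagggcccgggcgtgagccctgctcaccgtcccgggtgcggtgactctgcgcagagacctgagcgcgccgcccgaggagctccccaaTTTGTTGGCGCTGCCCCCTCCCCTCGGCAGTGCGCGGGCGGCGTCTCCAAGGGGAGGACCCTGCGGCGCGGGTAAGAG
Col4a4 (chr1:82586800-82587099, minus strand): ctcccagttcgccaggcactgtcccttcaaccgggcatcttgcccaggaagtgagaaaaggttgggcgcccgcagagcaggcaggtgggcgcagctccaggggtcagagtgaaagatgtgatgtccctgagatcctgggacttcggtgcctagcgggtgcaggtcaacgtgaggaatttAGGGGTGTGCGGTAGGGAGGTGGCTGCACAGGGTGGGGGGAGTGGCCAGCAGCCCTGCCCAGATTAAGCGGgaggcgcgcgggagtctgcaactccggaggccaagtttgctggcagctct

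A search of both strands for 3 common promoter motifs, the GC box (GGGCGG), the CCAAT box (CCAAT) and the TATA box (TATAAA), found 1 GC box and 1 CCAAT box in the Col4a1 window. The Col4a2 window held 3 GC boxes and 1 CCAAT box, and the Col4a4 window held none of the 3 motifs. The TATA box was in none of these windows. G and C made up 74.0%, 73.7% and 63.3% of the 3 windows, beside a median of 52.7% over all 32851 windows of the table. Of 38 windows of 35 collagen genes, 60.5% held a GC box, 34.2% a CCAAT box and 13.2% a TATA box. Over all windows the shares were 35.7%, 37.4% and 13.6%. The TATA box was in windows of Col3a1, Col10a1, Col11a2, Col13a1 and Col17a1. These matches describe letters, not sites in use.

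In the first pair, Col4a1 read 215, 231, 208 and 206 CPM in KO and 198, 189, 164 and 155 CPM in WT. It rose from 177 ± 20.4 to 215 ± 11.4 CPM (SD, n = 4 each; log2 fold change 0.29, SE 0.08; edgeR adjusted p = 0.0473). Every KO library was above every WT library. Of the 8 fits with 1 library left out, only that without WT replicate 1 kept the call, and the other adjusted p-values ran from 0.0507 to 0.132. Its partner Col4a2 had 163, 168, 160.1 and 146 CPM in KO and 161, 163, 143 and 116 CPM in WT (0.14, SE 0.10; adjusted p = 0.425). For Col4a2 the groups overlapped.

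In the second pair both genes fell. Col4a3 stood at 236, 233, 259 and 204 CPM in KO and 288, 315, 269 and 301 CPM in WT (log2 fold change −0.33, SE 0.08; edgeR adjusted p = 0.0227). Col4a4 stood at 186, 195, 204 and 198 CPM in KO and 236, 233, 223 and 257 CPM in WT (−0.27, SE 0.06; adjusted p = 0.0148). In both genes every KO library lay below every WT library. Within title forms the differences were −0.31 and −0.36 for Col4a3 and −0.25 and −0.30 for Col4a4. Leaving out KO replicates 1 or 2, or WT replicates 1, 2 or 4, ended the call of Col4a3 (adjusted p = 0.0502 to 0.0641), and leaving out KO replicate 1 ended that of Col4a4 (0.052).

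Col4a5, on the X chromosome, encodes the third chain of the α3α4α5 trimer. KO libraries had 51.3, 57.5, 56.3 and 62.7 CPM and WT libraries 55.9, 56.2, 54.4 and 60.7 CPM, and they overlapped (log2 fold change 0.01, SE 0.07; edgeR adjusted p = 0.96). Col4a6, its neighbour, averaged 4.60 ± 0.437 CPM in KO, beside 6.05 ± 2.91 CPM in WT, and did not pass. Podocytes, the glomerular cells that make the α3α4α5 network, were followed by 8 marker genes, of which 0 were called by edgeR, DESeq2 or voom (0 also at an unadjusted p under 0.05 in edgeR). Their summed level was 203 to 250.3 CPM in KO and 196 to 240.4 CPM in WT. Principal cell markers of the collecting duct fell in 7 of 8 genes, beside 4.68% of all tested genes called lower. Their summed level was 690 to 996 CPM in WT and 471 to 505 CPM in KO. The part of principal cells in the falls of Col4a3 and Col4a4 was not tested.

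Levels of chains that assemble together were compared as ratios per length for 7 pairs. The ratio of Col4a5 to Col4a4 was 0.332, 0.354, 0.332 and 0.382 in KO and 0.285, 0.291, 0.294 and 0.284 in WT. Every KO ratio was above every WT ratio, with means of 0.350 ± 0.0236 and 0.288 ± 0.00466 (SD; two-sided exact permutation test, p = 0.0286). This is the smallest p that 4 against 4 can give, and no other pair reached it. After Benjamini-Hochberg adjustment over the 7 pairs it was 0.2, so the ratio did not pass. A pair alone at this smallest p could not pass that adjustment, so the adjusted value does not decide whether the ratio shifted. The ratio of Col4a1 to Col4a2 was 1.31 ± 0.0505 in KO and 1.19 ± 0.0874 in WT (exact permutation p = 0.0857, adjusted 0.3). For Col4a3 to Col4a4 it was 1.08 ± 0.102 and 1.12 ± 0.0734 (exact p = 0.571, adjusted 0.667). The ratio of Col1a1 to Col1a2 was 0.461 ± 0.133 in KO and 0.362 ± 0.0787 in WT (exact p = 0.286, adjusted 0.667). The remaining pairs, Col6a1 to Col6a2, Col5a1 to Col5a2 and Col3a1 to Col1a2, had exact p-values of 0.514 or more.

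Types XV and XVIII are proteoglycan-like collagens of the basement membrane zone. Col18a1 (chromosome 10, 77052179 to 77166530, minus strand, mm10), whose C-terminal fragment is endostatin, read 266, 251, 228 and 269 CPM in KO and 221, 195, 199 and 218 CPM in WT. It rose from 208 ± 13.2 to 253 ± 18.9 CPM (SD, n = 4 each; log2 fold change 0.29, SE 0.07; edgeR adjusted p = 0.0243), with no overlap of the groups. Its differences were 0.25 with and 0.32 without a leading E in the title. Leaving out KO replicates 1 or 2, or WT replicates 2 or 3, ended the call (adjusted p = 0.0562 to 0.0715). Markers of injured tubule also rose, in 6 of 8 genes, beside 6.32% of all tested genes called higher. Their summed level was 382 to 405 CPM in KO and 252 to 286 CPM in WT. Among them Havcr1, which encodes KIM-1, averaged 44.5 ± 20.7 CPM in KO, beside 1.80 ± 0.564 CPM in WT (SD, n = 4 each). It read 4.07 CPM in DBA_2J and 62.8 CPM in 129S2_SvPasCrl. In 129S2_SvPasCrl no other marker of this list was above every WT library, and in DBA_2J Vcam1 and Cd44 were. The summed level of the list was 213 CPM in DBA_2J and 264 CPM in 129S2_SvPasCrl. The part of injured tubule cells in the rises of Col18a1 and Col4a1 was not tested. Col15a1, the related gene, averaged 6.91 ± 1.77 CPM in KO, beside 7.26 ± 0.997 CPM in WT, and did not pass.

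**Figure D2:**
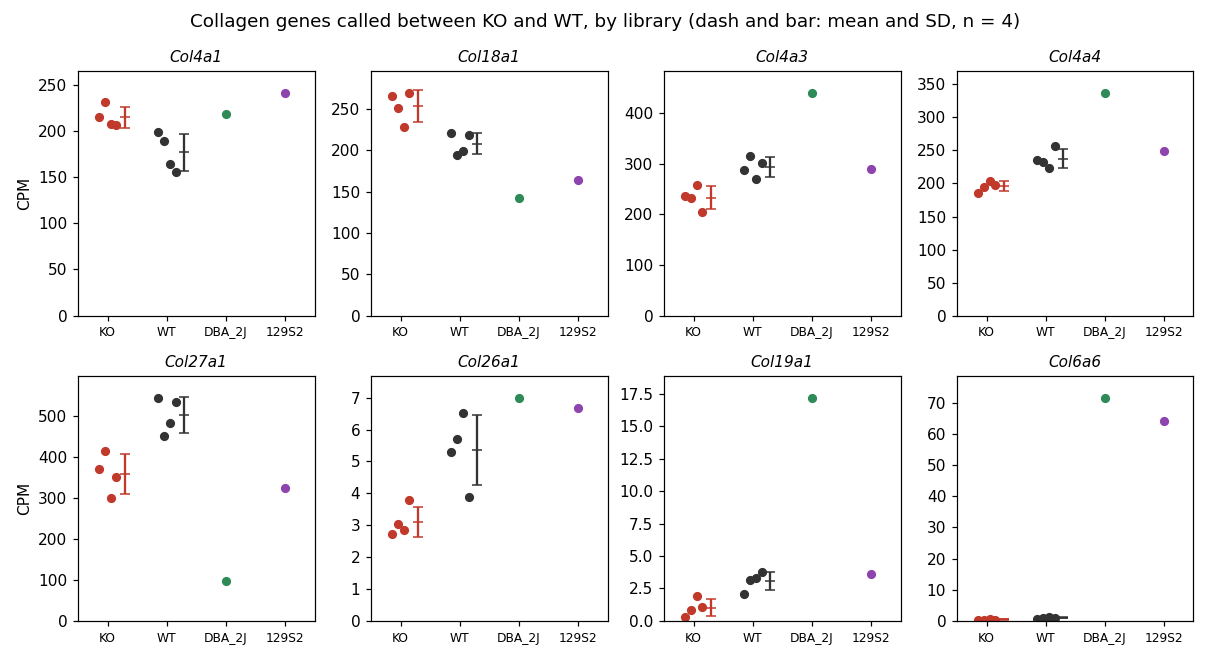
CPM of the 8 called collagen genes in each library, with a panel per gene and its own axis from 0; points are libraries, and the dash and bar beside the KO and WT points are the mean and SD (n = 4). KO points lie wholly above WT for Col4a1 and Col18a1 and wholly below for the other 6, while Col6a6 at 71.5 and 64.1 CPM in DBA_2J and 129S2_SvPasCrl is far above both groups.

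The third class holds collagens that are neither fibrillar nor of the basement membrane network. Type VI collagen forms beaded filaments in the interstitium, from the α1, α2 and α3 chains or from α4, α5 or α6 in the place of α3. Col6a1 read 11.6, 7.91, 9.81 and 10.2 CPM in KO and 13.0, 10.5, 10.6 and 13.9 CPM in WT (log2 fold change −0.27, SE 0.14; edgeR adjusted p = 0.24), and the groups overlapped. Col6a2 and Col6a3, at WT means of 5.83 and 9.64 CPM, had −0.17 and −0.07 and did not pass.

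Genes of the 3 alternative type VI chains lie in a row on the minus strand of chromosome 9 and were all low in C57BL/6N kidney. Col6a6 (105689417 to 105828085, mm10) had 0.414, 0.381, 0.560 and 0.379 CPM in KO and 0.715, 0.915, 1.16 and 1.04 CPM in WT. It fell 2.22-fold without overlap (log2 fold change −1.15, SE 0.28; edgeR adjusted p = 0.0262). The fall rests on a WT level of 0.958 ± 0.189 CPM (SD, n = 4), and the call held in 2 of 8 fits with 1 library left out, those without KO replicate 3 or WT replicate 1 (0.0535 to 0.0962 in the others). Col6a5 and Col6a4 had log2 fold changes of −0.90 (SE 0.44) and −0.98 (SE 0.45) at WT means of 1.53 and 0.986 CPM and did not pass.

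Fibril-associated collagens with interrupted helices sit on the surface of fibrils, and 5 of the 9 in the table were tested. Col19a1 (chromosome 1, 24257683 to 24587437, minus strand, mm10), the chain of type XIX collagen, read 0.256, 0.834, 1.87 and 1.08 CPM in KO and 2.09, 3.12, 3.28 and 3.79 CPM in WT. The groups did not overlap, and KO replicate 1 was the lowest. The fall was 3.06-fold (edgeR adjusted p = 0.0357), and the difference was −1.28 with and −2.33 without a leading E in the title. In the fits with 1 library left out the log2 fold change ran from −2.09 to −1.29, and the call was kept without KO replicates 1 or 3 or WT replicate 1.

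Col16a1 had 41.6, 34.7, 36.5 and 36.0 CPM in KO and 36.1, 31.6, 30.5 and 31.8 CPM in WT (log2 fold change 0.20, SE 0.08; edgeR adjusted p = 0.116). One WT library, replicate 1, lay inside the KO range. Col14a1 stood at 17.4, 13.0, 19.5 and 9.98 CPM in KO and 16.7, 15.9, 12.1 and 13.0 CPM in WT (0.06, SE 0.19; adjusted p = 0.876). Col12a1 stood at 10.2, 9.55, 13.5 and 11.5 CPM in KO and 10.7, 9.09, 11.9 and 8.85 CPM in WT (0.15, SE 0.13; adjusted p = 0.546). The groups overlapped in both, and in Col20a1, at 6.31 ± 0.644 and 5.67 ± 0.883 CPM.

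Col26a1 (chromosome 5, 136741764 to 136883107, minus strand, mm10) encodes type XXVI collagen, a small chain known from testis and ovary. KO libraries had 2.72, 3.05, 2.84 and 3.79 CPM and WT libraries 5.31, 5.71, 6.53 and 3.89 CPM. It fell 1.73-fold (log2 fold change −0.79, SE 0.18; edgeR adjusted p = 0.0189), with KO replicate 4 just under WT replicate 4. The differences were −0.61 with and −0.92 without a leading E in the title. It held in 5 of 8 fits with 1 library left out, and leaving out KO replicate 1 or WT replicates 2 or 3 ended it (0.0502 to 0.0651).

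Type VIII collagen builds hexagonal lattices in vessel walls and under endothelium. Col8a1 spread widely among WT animals, with 23.9, 17.9, 11.8 and 7.46 CPM, against 7.23, 10.4, 8.73 and 7.93 CPM in KO (log2 fold change −0.82, SE 0.28; edgeR adjusted p = 0.0917). WT replicate 4 lay within the KO values, and without it the gene was called (−1.04; adjusted p = 0.0123). Within title forms the difference was −0.17 with and −1.25 without a leading E. Col8a2 had −0.76 (SE 0.34) at a WT mean of 0.904 CPM and did not pass.

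Col7a1, the anchoring fibril collagen, and the transmembrane collagen genes Col13a1 and Col23a1 did not pass, with log2 fold changes of −0.43, 0.03 and −0.34. Exons of Col7a1 share 36 bases with Mir711 in the annotation. The 8 low genes of this class were Col9a1, Col9a2, Col9a3, Col10a1, Col17a1, Col22a1, Col25a1 and Col28a1, most of them known from cartilage, skin or nerve. Col9a1 had 2 counts over all 10 libraries, and Col17a1, the highest by count, had 114. A count of 0 in a library allows up to 0.0553 to 0.153 CPM, depending on its depth, so very low transcripts are not excluded by these counts, which cover counting error only.

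Levels were then ordered per length, as CPM per kilobase of exon, so that genes could be compared within WT kidney. Col27a1 came first at 66.1 ± 5.73 CPM per kilobase (SD, n = 4). Next came Col18a1 (35.9 ± 2.28), Col4a3 (34.1 ± 2.27), Col4a4 (30.4 ± 1.85), Col4a1 (26.7 ± 3.09) and Col4a2 (22.6 ± 3.40). Each of these 5 overlapped its neighbour in the order in the range of its 4 libraries, whereas Col27a1 did not overlap Col18a1. Col4a5 followed at 8.75 ± 0.419, below the lowest library of Col4a2. Col16a1 (6.24 ± 0.472) and Col1a2 (5.89 ± 0.427) came next and overlapped, while Col1a1 was at 2.11 ± 0.363 and Col3a1 at 2.45 ± 0.221. In KO the first 3 were Col27a1 (47.1 ± 6.32), Col18a1 (43.8 ± 3.27) and Col4a1 (32.5 ± 1.72). Col27a1 and Col18a1 overlapped there.

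**Figure D3:**
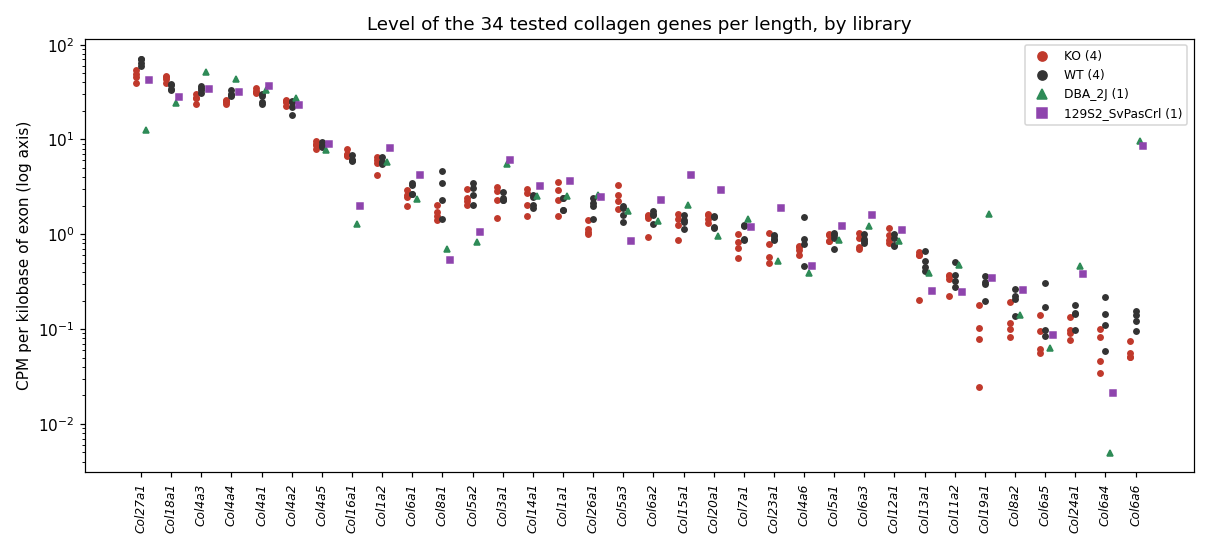
CPM per kilobase of exon of the 34 tested collagen genes in each of the 10 libraries, on a log axis, ordered by the WT mean; circles are KO (red) and WT (black), triangles DBA_2J and squares 129S2_SvPasCrl. Col27a1 leads the WT order at 66.1, the 5 genes after it lie between 22.6 and 35.9, and Col6a6 is last in WT at 0.128 but reads 9.57 and 8.59 in the strain libraries.

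Genes that make, process, bind or accompany collagen were taken from 5 lists of 72 genes, 66 of them tested. Of these, 2 were called higher in KO and 3 lower, beside 6.32% and 4.68% of all tested genes. Their median log2 fold change was 0.00. Of 17 tested genes of folding and modification, 1 rose. That gene was P4ha2, a subunit of the prolyl 4-hydroxylase that stabilises the collagen helix, with 48.0, 45.7, 47.3 and 43.8 CPM in KO and 32.4, 29.2, 31.7 and 30.2 CPM in WT (0.59, SE 0.06; edgeR adjusted p = 0.000214). All 4 KO libraries were above WT, while the sister subunit gene P4ha1 read 48.9 ± 3.89 and 48.8 ± 4.28 CPM.

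Of 12 tested genes of processing and cross-linking and 13 of breakdown and its inhibitors, 0 were called by edgeR, DESeq2 or voom. At an unadjusted p under 0.05, 0 of the first list and 1 of the second, Mmp15, differed, beside 26% of all tested genes. Pcolce, an enhancer of procollagen cleavage, had −0.20 (SE 0.10; adjusted p = 0.215) and the membrane protease gene Mmp15 −0.42 (SE 0.18; 0.166). Among 8 tested collagen receptor genes, Itgb1, the β1 chain of collagen-binding integrins, rose from 216 ± 11.3 to 262 ± 13.9 CPM (0.28, SE 0.06; adjusted p = 0.0148).

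Of 16 other basement membrane genes, edgeR called 3 lower and 0 higher, beside 4.68% and 6.32% of all tested genes. At an unadjusted p under 0.05, 5 were lower and 3 higher, beside 12.4% and 13.6% of all tested genes. DESeq2 called 0 of them higher and voom 1. The laminin β2 gene Lamb2, a chain of the glomerular laminin, went from 78.4 ± 4.16 to 64.8 ± 5.71 CPM (SD, n = 4 each; −0.27, SE 0.07; edgeR adjusted p = 0.0356). The laminin α4 gene Lama4 (−0.47, SE 0.13, adjusted p = 0.043) and the perlecan gene Hspg2 (−0.41, SE 0.11, adjusted p = 0.0377) also fell in edgeR. For Hspg2 the groups overlapped, with KO replicate 3 at 79.0 CPM and WT replicate 1 at 78.7 CPM. The 3 falls depended on single libraries. Leaving out KO replicate 1 or WT replicates 3 or 4 left 0 partner genes called lower in edgeR. Leaving out KO replicates 2 or 4, or WT replicates 1 or 2, left 1. Over the whole table these fits called 381 to 722 genes lower, beside 728 in the main fit. DESeq2 called 5 partner genes lower, beside 1074 of all 15547 genes. After thinning 1 was called lower, beside 647 of 14666.

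Markers of cells that make interstitial and vascular collagen were read in the same fit. Over all tested genes, that fit called 6.32% higher and 4.68% lower, and 26% had an unadjusted p under 0.05. Of 8 fibroblast genes 0 were called by edgeR, DESeq2 or voom (1 at an unadjusted p under 0.05), with Dcn at 36.3 ± 9.60 CPM in KO, beside 47.2 ± 6.82 CPM in WT (SD, n = 4), and their summed level was 118 to 196 CPM and 177 to 207 CPM. Smooth muscle, pericyte and myofibroblast genes fell in 5 of 8, and Cspg4 rose. Myh11 and Acta2, the contractile markers, were 15.9 ± 1.82 and 16.5 ± 1.22 CPM in KO and 29.4 ± 2.93 and 25.4 ± 1.80 CPM in WT. Endothelial genes fell in 2 of 8, Tie1 and Kdr, with summed levels of 189 to 286 CPM in KO and 259 to 324 CPM in WT. The macrophage gene Csf1r fell, from 57.3 ± 1.13 to 36.7 ± 4.07 CPM, as 1 of 8. Cd68 went the other way, from 2.47 ± 0.609 to 3.88 ± 1.03 CPM, and did not pass (edgeR adjusted p = 0.103). The median log2 fold change of the 8 macrophage genes was 0.10. Urothelium (8 genes) and fat cell (6 genes) lists had 0 calls by edgeR, DESeq2 or voom (0 and 1 at an unadjusted p under 0.05). The part of these cells in the collagen values was not tested.

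The libraries of the other strains were set beside the WT mean of C57BL/6N by size alone, since each is 1 animal and allows no test. These comparisons share the WT libraries with the comparison of KO. In DBA_2J, 4 of 32 collagen genes with 1 CPM or more in the strain library or the WT mean were over 2-fold higher and 6 over 2-fold lower, beside 4.96% and 6.33% of all genes at that level. In 129S2_SvPasCrl, 6 of 33 were over 2-fold higher and 3 lower, beside 3.89% and 4.35%. Some genes reached 1 CPM on one side only, among them Col6a6 through the strain libraries and Col6a5 through WT. With 1 CPM or more asked of both sides, 3 of 30 were higher and 5 lower in DBA_2J (3.65% and 4.54% of all such genes), and 5 of 29 higher and 3 lower in 129S2_SvPasCrl (2.65% and 2.93%). Col6a6, Col24a1 and Col3a1 were higher in both and Col8a1, Col16a1 and Col5a2 lower in both, and no gene was over 2-fold higher in one strain and over 2-fold lower in the other.

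Col6a6 showed the largest difference of any of these genes in both strain libraries. The DBA_2J library had 71.5 CPM (95% exact Poisson interval 69.3 to 73.8, counting error only) and the 129S2_SvPasCrl library 64.1 CPM (62.0 to 66.4), beside 0.715 to 1.16 CPM in WT and 0.379 to 0.560 CPM in KO. These are 74.7-fold and 67.0-fold the WT mean. The adjoining gene Col6a5 had 0.590 and 0.811 CPM, and Col6a4 had 0.0369 and 0.158 CPM, from 2 and 8 counts, beside 0.441 to 1.61 CPM in WT. The high level in these strains was thus in the Col6a6 row of the cluster and not in the rows next to it.

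Of the genes that moved in 1 strain, Col19a1 had 17.2 CPM in DBA_2J and 3.64 CPM in 129S2_SvPasCrl, beside 2.09 to 3.79 CPM in WT. Col27a1 was 5.23-fold under the WT mean in DBA_2J. Col15a1 had 22.2 CPM in 129S2_SvPasCrl and 10.8 CPM in DBA_2J, both above the WT range of 6.01 to 8.43 CPM. Col20a1 and Col23a1 lay on opposite sides of the WT range in the strains. In 129S2_SvPasCrl they were over 2-fold higher, at 12.3 and 10.7 CPM, and in DBA_2J they read 4.04 and 2.95 CPM, below every WT library but within 2-fold of the WT mean. Col4a6 and Col6a5 were lower in DBA_2J, at 2.60 and 0.590 CPM.

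Among fibril genes, Col3a1 had 30.6 CPM in DBA_2J and 33.6 CPM in 129S2_SvPasCrl, above all 8 C57BL/6N libraries, while Col1a1 (12.0 and 17.0 CPM) and Col1a2 (29.7 and 41.7 CPM) were within 2-fold of WT. Col5a2, which lies next to Col3a1 on chromosome 1 on the other strand, had 5.51 and 6.94 CPM, below all of them. Col16a1 had 6.63 and 10.4 CPM and Col8a1 3.56 and 2.71 CPM, both below every C57BL/6N library. Col24a1 had 3.34 and 2.75 CPM, beside 0.694 to 1.28 CPM in WT.

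Type IV genes stayed within 2-fold in both strains except Col4a6 in DBA_2J. Col4a3 and Col4a4, lower in KO than in WT, were at 439 and 337 CPM in DBA_2J, above every WT library. In 129S2_SvPasCrl they were at 290.1 and 249 CPM, inside the WT range. Col18a1 was at 142 and 164 CPM in the strains, below every WT library, and Col4a1 at 218 and 241 CPM, above every WT library.

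**Figure D4:**
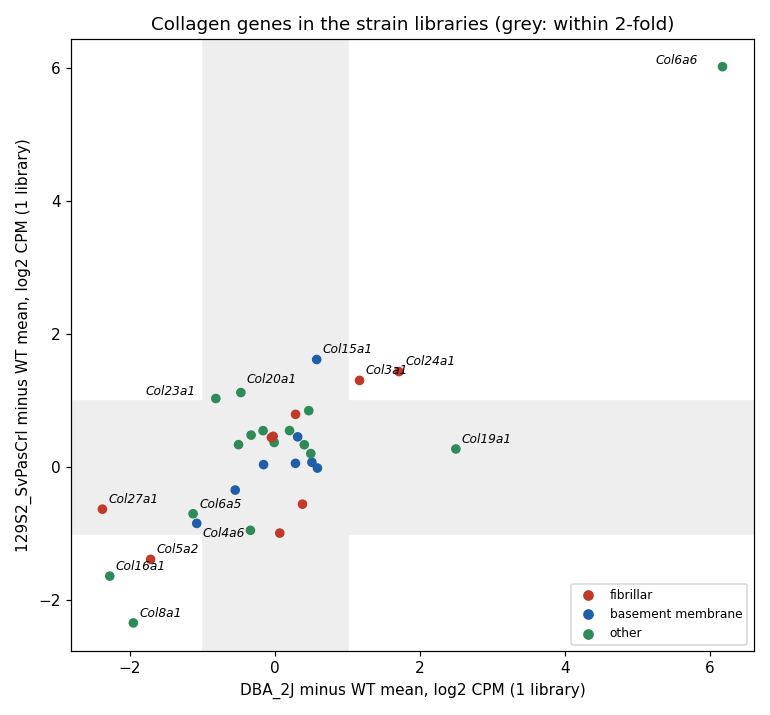
Difference of the log2 CPM of each strain library from the WT mean of 4 C57BL/6N libraries, DBA_2J on the horizontal and 129S2_SvPasCrl on the vertical axis, for collagen genes with 1 CPM or more in a strain library or the WT mean; grey bands mark differences within 2-fold and colours mark the class. Col6a6 stands alone at 6.17 and 6.02, and Col8a1, Col16a1 and Col5a2 lie over 2-fold below WT in both.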

How the data were processed

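Per the labels, polyadenylated kidney RNA was sequenced as single-end reads. Per the submitters' processing notes, the tools were STAR, featureCounts and edgeR and the build mm10 (GRCm38); per the file headers, featureCounts 1.5.2 counted reads over exons without a strand option. The authors deposited raw counts per gene and library, a matrix joining them, which equalled the single tables in all 10 columns, and a table of log2 values. The deposited log2 values, for 13645 genes and 33 collagen genes, equalled voom's log2 CPM (largest difference 5e-14) and were not tested further.

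The main test was the quasi-likelihood F test of edgeR 4.0.16, run in R 4.3.3 on counts of 4 KO and 4 WT libraries with genotype as the only term, after filterByExpr and scaling by TMM. Benjamini-Hochberg adjustment covered 15547 genes, and a gene was called under 0.05. Printed CPM use TMM over all 10 libraries, and strain differences use log2 CPM with a prior count of 2. Depth of 19.79 to 57.25 M limits precision; the biological coefficient of variation was 12.3%. Exact permutation tests were two-sided. Alternatives used limma 3.58.1 voom, DESeq2 1.42.0, other scaling and filters, thinning, title form and single libraries left out. Fitting functions were tested on simulated data.

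Values in each library are given for called collagen genes and for those with a group mean of 10 CPM or more. Partner genes are named when called, up to 4 a list, or up to 2 by smallest p, and markers up to 2. P4ha1 and Havcr1's level, and Cspg4, Krt8, Krt18, Vcam1 and Cd44, were added after their values were seen. The collagen genes and all lists were chosen with earlier results of these data known. Of the 72 partner genes 5 were matched by an older symbol. Replicate numbers were given in accession order, so they pair no animals. Nothing in the labels says that animals were littermates.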

Additional observations from a re-analysis of the deposited data

Results flagged for a closer look

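Among 68 groups of 4 libraries (the KO and the WT group of each of the 34 tested collagen genes), 1 held a library far from the other 3. Col13a1, a transmembrane collagen gene, read 0.587 CPM in KO replicate 4, while the nearest of the other KO libraries read 1.75 CPM and the highest 1.87 CPM. Chance alone sets apart about 1 group in 20 under this rule. The gene was not called between KO and WT.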

How the results depend on the processing

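With voom, DESeq2, RLE size factors, library totals alone, no filter on low counts, title form as a term, thinning or all 10 libraries in the fit, the 8 called collagen genes were all called again. Animals with a leading E in the title, alone, gave 0 higher and 0 lower, in a fit that called 92 genes higher and 51 lower. Those without it gave 2 and 6, with 6 of the 8 genes shared, in a fit that called 924 and 799. With single libraries left out, 0 to 2 collagen genes were higher and 2 to 6 lower. Over the whole table those fits called 610 to 916 genes higher and 381 to 722 lower, beside 982 and 728 in the main fit. Partner genes were 2 to 3 higher and 0 to 3 lower with single libraries left out (5 lower in DESeq2, 1 after thinning). At 1.5-fold in place of 2-fold, 8 collagen genes were lower in 129S2_SvPasCrl. Col6a3 and Col1a1, with log2 differences of 0.85 and 0.79, then joined the 6 higher ones. The share of all genes at 1.5-fold is not given here. The level of 1 CPM on both sides was chosen after seeing the data. Directions that turned were all of uncalled genes. Col1a2 read 0.0487 with a leading E alone and −0.145 to 0.0497 with a library left out. Col3a1 read 0.0230 with library totals alone, 0.00654 without the filter, 0.38 with a leading E alone and −0.14 to 0.17 with a library left out. Col5a2 read 0.0566 without a leading E. Col4a5 read −0.00286 after thinning, −0.0396 without a leading E and −0.0399 to 0.0541 with a library left out, and Col14a1 −0.0876 and −0.0871 to 0.219. With a library left out, log2 ratios ran from 0.11 to 0.19 for Col4a1 to Col4a2 (0.19, exact permutation p = 0.0286, without WT replicate 4). They crossed 0 for Col4a3 to Col4a4 (−0.0934 to 0.00805), Col5a1 to Col5a2 (−0.00377 to 0.426) and Col3a1 to Col1a2 (−0.112 to 0.115). The cause of these shifts was not tested. No paired analysis was possible because the replicate numbers follow accession order. Depth limits the 10 low genes and the calls under 1 CPM.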
